A study of Mus musculus with 6 samples.

Results

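The MS4A (membrane-spanning 4-domains, subfamily A) genes measured here are Ms4a4a, Ms4a4b, Ms4a4c, Ms4a4d, Ms4a6b, Ms4a6c, Ms4a6d and Ms4a7. They were listed by gene name, with earlier results of these data known, and are 8 of the 25700 gene identifiers counted. RNA was sequenced from bone marrow-derived macrophages (BMDMs), which are macrophages grown from mouse marrow with the growth factor M-CSF (100 ng/ml). The Heme group was 3 cultures that received 300 μM heme-albumin on day 3, and the Control group was 3 cultures that received albumin alone on that day. All 6 cultures came from C57BL/6J mice of 8 to 10 weeks, each from 1 mouse, had no other genotype or agent in their labels, and were harvested on day 7. The comparison asks how the RNA of marrow cells changes when they mature in the presence of heme, the iron-containing pigment of red blood cells.

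MS4A proteins cross the membrane several times, and the founding members are CD20 (Ms4a1) of B cells, the β chain of the IgE receptor (Ms4a2) of mast cells and HTm4 (Ms4a3) of myeloid progenitors. In macrophages the Ms4a4, Ms4a6 and Ms4a7 genes are known as markers of differentiation and activation state, and several of the proteins associate with other surface receptors and change their signalling. In human genetics the locus is linked to Alzheimer disease and to the level of soluble TREM2.

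The library totals were 32366848, 27201038 and 29338776 counts in the Heme libraries, against 32994595, 31316657 and 30509099 counts in the Control libraries. Levels are given as CPM, which is read counts relative to the library size scaled with edgeR's TMM factors. A gene without counts in a library could still have up to 0.0829 to 0.119 CPM there (3 counts), for counting error only. Genes were tested with edgeR's quasi-likelihood test and called at an adjusted p (Benjamini-Hochberg over 12433 genes) under 0.05. Heme and Control BMDMs differed widely, with 7769 genes called (62.5%), 3938 of them higher (31.7%) and 3831 lower (30.8%) in Heme libraries, and with 8560 genes (68.8%) whose Heme libraries lay all above or all below the Control libraries. With library sizes as the only scaling, the calls were 20.8% higher and 46.8% lower, and the median log2 fold change over all tested genes was -0.22 in place of 0.00. Of the macrophage markers tested (Adgre1, Csf1r, Cd68, Lyz2, Mertk, Fcgr1, Itgam, Mrc1), 6 of 8 were lower and Itgam was higher in Heme libraries, and their summed level was 36167 to 39406 CPM in Heme libraries and 32558 to 38288 CPM in Control libraries. Most of that sum was Lyz2, which was not called, and the other 7 markers together were lower, at 5170 to 5478 CPM in Heme libraries and 7388 to 8038 CPM in Control libraries. The largest falls in this list were those of Mrc1 (log2 fold change -5.15), Fcgr1 (-2.01) and Mertk (-1.91). In bulk RNA, a smaller share of cells with a transcript and less transcript per cell cannot be told apart.

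The 8 genes lie on chromosome 19 (GRCm38, positions 11321039 to 11604849, a span of 283.8 kb). From left to right they are Ms4a7 (ENSMUSG00000024672, 11321039 to 11336146), Ms4a4a (ENSMUSG00000101389, 11375523 to 11392790), Ms4a4c (ENSMUSG00000024675, 11404770 to 11427246) and Ms4a4b (ENSMUSG00000056290, 11443553 to 11467055). Then follow Ms4a6c (ENSMUSG00000079419, 11469366 to 11482192), Ms4a6b (ENSMUSG00000024677, 11516512 to 11531256), Ms4a4d (ENSMUSG00000024678, 11536801 to 11558467) and Ms4a6d (ENSMUSG00000024679, 11586604 to 11604849). Ms4a7 and Ms4a6d, the outermost, are on the minus strand and the others on the plus strand. Each is protein-coding, and the coding transcript used here has 7 exons, or 8 in Ms4a6b. Their coding sequences fall into close relatives by pairwise identity. Ms4a4b and Ms4a4c were 91.7% identical over the aligned coding bases, and Ms4a4d was 85.6% and 87.9% identical to Ms4a4b and Ms4a4c. Ms4a6b was 85.4% identical to Ms4a6c and 81.2% to Ms4a6d, and Ms4a6c was 79.0% identical to Ms4a6d. Ms4a4a, in spite of its name, was only 65.7% to 68.2% identical to Ms4a4b, Ms4a4c and Ms4a4d, and every pair outside these groups was 57.1% to 61.9% identical.

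The first 120 coding bases of the 3 Ms4a6 genes are shown 5′ to 3′ because these close relatives moved in opposite directions (GENCODE M21, GRCm38, chromosome 19). Capitals mark bases that differ from Ms4a6d in the pairwise alignment. The first base of the start codon is at 11603292 on the minus strand in Ms4a6d, at 11471105 on the plus strand in Ms4a6c and at 11520339 on the plus strand in Ms4a6b.
Ms4a6d: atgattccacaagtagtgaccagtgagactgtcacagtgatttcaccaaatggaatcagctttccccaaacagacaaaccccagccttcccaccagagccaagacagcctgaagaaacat
Ms4a6c: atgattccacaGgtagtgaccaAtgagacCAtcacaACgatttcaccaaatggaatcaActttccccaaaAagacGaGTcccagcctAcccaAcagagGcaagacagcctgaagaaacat
Ms4a6b: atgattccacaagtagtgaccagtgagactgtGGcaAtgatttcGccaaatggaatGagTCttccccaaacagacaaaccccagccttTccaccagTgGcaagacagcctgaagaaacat
In this stretch Ms4a6c differed from Ms4a6d at 14 bases and Ms4a6b at 10 bases. Reads can still be told apart in nearly all of each gene. Of the stretches of 75 bases in the transcripts, those shared with another annotated gene were 0.408% in Ms4a6d, 0.632% in Ms4a6b, 1.18% in Ms4a4b, 2.88% in Ms4a6c and 3.78% in Ms4a4c, and 0 in Ms4a4a, Ms4a4d and Ms4a7. How reads with more than 1 match were counted is not given in the sources used here. Ms4a6c also shares 1088 exonic bases with BE692007 on the other strand, and the strand setting of the counting is not given, so reads of the pair may not have been told apart in that stretch; BE692007 itself was not analysed here.

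The 250 bases before the annotated start were read for 7 of the 8 genes (RefSeq, GRCm38.p6), Ms4a7 having 2 starts. The gene without a window was Ms4a6d, the member that was higher in Heme libraries, so no motif was searched there. Of the motifs searched on both strands, the core of the interferon-stimulated response element, GAAANNGAA, was in 4 of these 8 windows, in Ms4a6b, Ms4a6c and both windows of Ms4a7, and in 7.15% of 32536 windows of all genes. The window of Ms4a6b, that of Ms4a6c and the first of Ms4a7 are shown because these genes were lower in Heme libraries, and capitals mark the match.
Ms4a6b, chr19:11518309-11518558, plus strand: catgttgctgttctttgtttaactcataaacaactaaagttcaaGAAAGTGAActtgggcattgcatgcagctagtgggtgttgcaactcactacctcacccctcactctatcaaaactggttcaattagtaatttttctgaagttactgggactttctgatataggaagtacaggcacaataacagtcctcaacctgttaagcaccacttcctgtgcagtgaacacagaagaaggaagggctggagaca
Ms4a6c, chr19:11469118-11469367, plus strand: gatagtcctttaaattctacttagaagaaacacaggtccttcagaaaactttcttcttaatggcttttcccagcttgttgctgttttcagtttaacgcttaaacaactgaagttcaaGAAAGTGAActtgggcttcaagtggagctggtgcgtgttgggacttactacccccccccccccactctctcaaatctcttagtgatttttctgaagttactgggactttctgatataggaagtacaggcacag
Ms4a7, first start, chr19:11336147-11336396, minus strand: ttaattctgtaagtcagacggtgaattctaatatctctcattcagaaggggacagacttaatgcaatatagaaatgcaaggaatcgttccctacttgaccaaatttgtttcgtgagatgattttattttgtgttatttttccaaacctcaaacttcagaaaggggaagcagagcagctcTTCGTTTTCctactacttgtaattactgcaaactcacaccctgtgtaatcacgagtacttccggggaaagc
Ms4a6b and Ms4a6c carry the same matched letters. The window of Ms4a4c, known as an interferon-inducible gene, is shown beside them because it has no match to that core. Its capitals mark a PU.1 core, GAGGAA, which can overlap the interferon element and was in 23.4% of all windows.
Ms4a4c, chr19:11407411-11407660, plus strand: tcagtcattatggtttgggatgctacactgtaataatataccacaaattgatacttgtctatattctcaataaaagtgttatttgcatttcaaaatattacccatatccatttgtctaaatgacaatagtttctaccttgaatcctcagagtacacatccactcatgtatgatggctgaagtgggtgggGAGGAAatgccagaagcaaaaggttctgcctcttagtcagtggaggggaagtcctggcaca
Among the members the PU.1 core was in the windows of Ms4a4b and Ms4a4c. Each of the other motifs was in the windows of 1 gene. The AP-1 element TGANTCA, in the second Ms4a7 window, was in 6.73% of all windows, and the C/EBP element TTGCNNAA, in Ms4a4d, in 9.57%. Ms4a4a held the antioxidant response element core TGACNNNGC, which can overlap an AP-1 element and was in 10.2% of all windows, and 2 matches to the Maf-type core TGCTGA, which was in 16.1%. These matches describe letters and were not tested as binding sites.

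Ms4a6d was the one member that was higher in heme-treated BMDMs, and 5 members, Ms4a6b, Ms4a6c, Ms4a7, Ms4a4c and Ms4a4b, were lower. Ms4a4a was not called, and Ms4a4d had too few counts to be tested. Of the 7 members tested, 6 were thus called, beside 62.5% of all tested genes, and the same 6 had groups that did not overlap, beside 68.8% of all. Their median log2 fold change was -0.87, beside 0.00 over all tested genes. The median is over the 7 members that passed the filter on low counts, not over all 8. Of these 7, Ms4a4c passed it only through the Control libraries.

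Ms4a6d encodes a macrophage membrane protein that in mice forms a complex with VSIG4. It had 300.3, 300.4 and 307 CPM in the Heme libraries, against 106, 107 and 115 CPM in the Control libraries. The groups did not overlap, and the 3 cultures of each group were close together, with a coefficient of variation of 1.21% in Heme and 4.28% in Control libraries, the tightest pair of groups among the members. The means were 302 ± 3.65 CPM in Heme and 109 ± 4.69 CPM in Control libraries (SD, n = 3 each), a ratio of 2.76. The log2 fold change was 1.47 (SE 0.06, edgeR adjusted p = 7.23e-08), at percentile 92.8 of all tested genes. VSIG4 itself was barely counted, with a mean level of 0.0244 CPM for Vsig4 in Heme libraries and 0.268 CPM in Control libraries, and was not tested.

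Ms4a6b and Ms4a6c, the closest relatives of Ms4a6d, went the other way. Ms4a6b had 26.6, 31.6 and 25.6 CPM in the Heme libraries, against 66.8, 73.9 and 90.8 CPM in the Control libraries. Every Heme library was lower than every Control library, and the fall (log2 fold change -1.47, SE 0.12, edgeR adjusted p = 6.34e-06) was the same in size as the rise of Ms4a6d. Ms4a6c had 56.1, 74.97 and 59.4 CPM in the Heme libraries, against 94.0, 103 and 119 CPM in the Control libraries. Here too the groups did not overlap, with a smaller gap between the second Heme library and the first Control library, and the log2 fold change was -0.73 (SE 0.12, edgeR adjusted p = 0.00057).

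Ms4a7 is widely used as a marker of mature macrophages and of marrow-derived macrophages in the brain. Its level was 88.2, 113 and 100.2 CPM in the Heme libraries, against 135, 242 and 176 CPM in the Control libraries. The groups did not overlap, but the Control cultures differed among themselves, Control 2 having 1.79 times the level of Control 1. The log2 fold change was -0.87 (SE 0.18, edgeR adjusted p = 0.00243).

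Ms4a4c and Ms4a4b, which are neighbours and near copies of each other, had low counts. Ms4a4c had 0.303, 0.790 and 0.477 CPM in the Heme libraries, against 2.27, 2.54 and 5.32 CPM in the Control libraries, from 42 counts in all in Heme and 341 in Control libraries. No Heme library reached the lowest Control library, and the log2 fold change, -2.70 (SE 0.44, edgeR adjusted p = 0.000489), was the largest fall of any member, at percentile 1.2 of all tested genes. With 9 counts in Heme 1, Ms4a4c passed the filter on low counts only through the Control libraries. Without that filter its log2 fold change was -2.71 (edgeR adjusted p = 2.11e-05). Ms4a4b, known in mice from T cells, where it associates with GITR, had 0.572, 0.435 and 0.404 CPM in the Heme libraries, against 0.691, 0.985 and 0.948 CPM in the Control libraries. The groups were apart by a narrow gap, on 39 counts in Heme and 89 in Control libraries, with a log2 fold change of -0.88 (SE 0.28, edgeR adjusted p = 0.0215). That call was lost without Control 2 (adjusted p = 0.0608), without Control 3 (0.0616), without Heme 2 (0.0653) and without Heme 3 (0.0834) in edgeR, and with all libraries in DESeq2 (0.0665) and in edgeR with the replicate number as a block (0.0515). Of the 7 T and NK cell markers, Cd3e, Cd3g and Cd8a were at 0 in all 6 libraries. Cd3d had 3 counts in Heme and 0 in Control libraries, and Nkg7 had 5 and 0. Ncr1 had 0 counts in Heme and 1 in Control libraries, and Lck had 61 and 42. The 7 markers together had 0.593 to 0.977 CPM in Heme libraries and 0.245 to 0.608 CPM in Control libraries.

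Ms4a4a, known from alternatively activated macrophages, where the protein associates with the β-glucan receptor Dectin-1, was not called. It had 2.63, 6.32 and 3.41 CPM in the Heme libraries, against 3.18, 7.70 and 6.30 CPM in the Control libraries. The groups overlapped, with Heme 2 above Control 1 and Control 3, and in each group the highest library was about as far above the lowest, by 2.41 times in Heme and 2.42 times in Control libraries. The log2 fold change was -0.48 (SE 0.37, edgeR adjusted p = 0.275). Without Control 1 it was -0.79 and passed the threshold (edgeR adjusted p = 0.0304). Ms4a4d had 1, 0 and 2 counts in the Heme libraries and 0 counts in each Control library. It was not detectable above the floor of 3 counts in either group, and no fold is given.

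**Figure D1:**
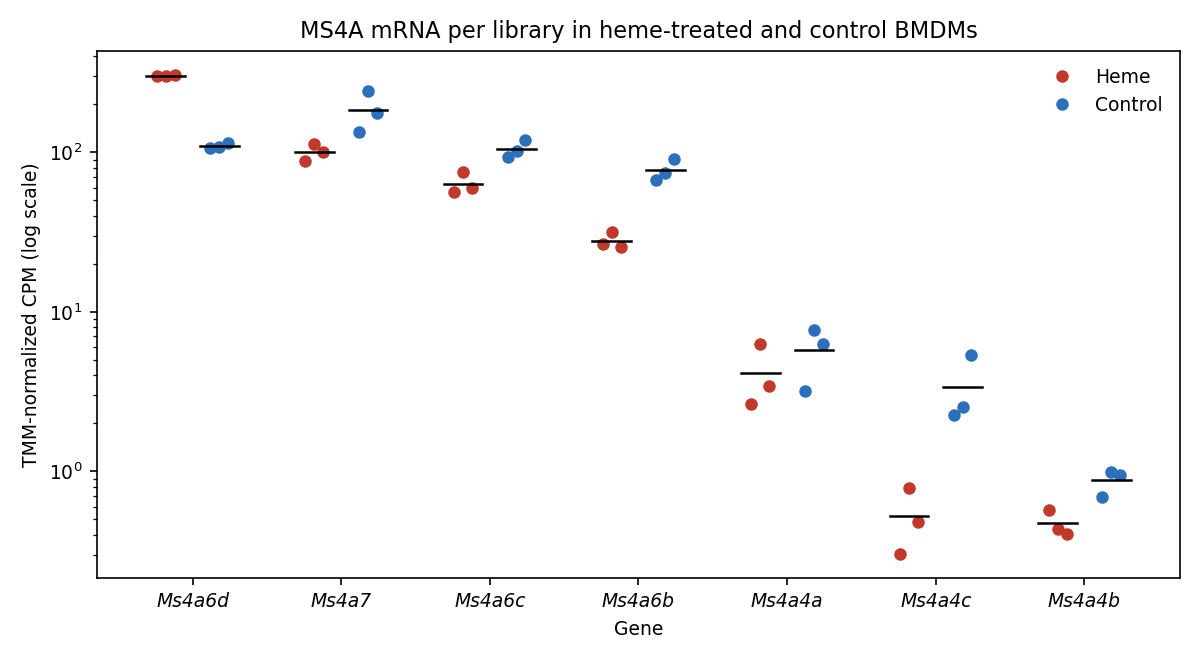
Level of the 7 members that passed the filter on low counts, in TMM-normalized CPM on a log axis, for each Heme (red) and Control (blue) library, with black bars at the group means. Ms4a6d is higher in all Heme libraries (300.3 to 307 CPM, against 106 to 115 CPM in Control libraries), Ms4a4a overlaps between the groups, and the other 5 members are lower in all Heme libraries.

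Over the cultures of a group the members shared part of their order. All 7 tested members were lowest in Control 1 among the Control libraries, and 5 of 7 were lowest in Heme 1 among the Heme libraries. The highest library differed between members. Among the Control libraries, Ms4a7, Ms4a4a and Ms4a4b were highest in Control 2, whereas Ms4a4c, Ms4a6b, Ms4a6c and Ms4a6d were highest in Control 3. Among the Heme libraries, Heme 2 was highest for Ms4a4a, Ms4a4c, Ms4a6b, Ms4a6c and Ms4a7, Heme 1 for Ms4a4b and Heme 3 for Ms4a6d. These orders rest on 3 cultures a group and were not tested.

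Ms4a6d rose and 5 others fell. In CPM, Ms4a6d had the highest mean of the members in Heme libraries (302 CPM). In Control libraries Ms4a7 did (184 CPM, against 109 CPM for Ms4a6d). The summed level of all 8 overlapped between the groups. It was 475, 528 and 496 CPM in the Heme libraries, against 408, 537 and 513 CPM in the Control libraries (log2 ratio of the means 0.04, exact two-sided permutation p = 0.9). With Ms4a6d left out, the sum was 197 ± 27.4 CPM in Heme and 377 ± 66.5 CPM in Control libraries (SD, n = 3 each), with no overlap (log2 ratio -0.93, exact permutation p = 0.1). That is the smallest p that 3 against 3 libraries allow, so none of the exact tests here can pass 0.05.

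Levels of different genes were compared per kilobase of annotated exon. On this scale the order of the members was the same in both groups, Ms4a6d first, then Ms4a6c, Ms4a7, Ms4a6b, Ms4a4a, Ms4a4c, Ms4a4b and Ms4a4d. In Control libraries Ms4a6d (63.0 ± 2.70 CPM per kb), Ms4a6c (51.4 ± 6.30) and Ms4a7 (41.4 ± 12.1) lay near each other, and the ranges of Ms4a6c and Ms4a7 overlapped (SD, n = 3). In Heme libraries Ms4a6d stood at 174 ± 2.11 CPM per kb, far above Ms4a6c (31.0 ± 4.92) and Ms4a7 (22.6 ± 2.84). Ms4a4a (4.93 ± 2.33 CPM per kb) and Ms4a6b (6.23 ± 0.712) overlapped in Heme libraries, but not in Control libraries (6.85 ± 2.77 for Ms4a4a and 17.2 ± 2.75 for Ms4a6b). The sum over the 8 members per kilobase was 239 ± 10.4 CPM per kb in Heme and 182 ± 21.2 CPM per kb in Control libraries, without overlap (log2 ratio 0.40, exact permutation p = 0.1). Per kilobase the sum was thus higher in Heme libraries, while in CPM the groups overlapped. The annotated exons cover 1735 bp in Ms4a6d, 4453 bp in Ms4a7 and 4485 bp in Ms4a6b.

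The make-up of the family, which does not depend on the scaling between libraries, shifted to Ms4a6d. Its share of the summed CPM per kb was 75.4%, 69.2% and 74.1% in the Heme libraries, against 38.9%, 32.0% and 34.0% in the Control libraries. Ms4a6d thus held most of the family's transcripts in every Heme library and in none of the Control libraries (exact two-sided permutation p = 0.1). The share of Ms4a6c was 12.9% ± 1.49 in Heme and 28.3% ± 2.13 in Control libraries, that of Ms4a7 9.42% ± 0.779 in Heme and 22.5% ± 4.82 in Control libraries, and that of Ms4a6b 2.60% ± 0.209 in Heme and 9.46% ± 0.936 in Control libraries (SD, n = 3 each). For these 3 genes, and for Ms4a4b and Ms4a4c, the shares did not overlap and were lower in Heme libraries (exact permutation p = 0.1 each). The sizes depend on the length correction. Without it, the difference between Heme and Control libraries was -9.14 percentage points in place of -15.4 for Ms4a6c and -10.4 in place of -6.86 for Ms4a6b, and 37.9 in place of 38.0 for Ms4a6d. The share of Ms4a4a overlapped, at 2.03% ± 0.872 in Heme and 3.68% ± 1.18 in Control libraries (exact permutation p = 0.2).

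**Figure D2:**
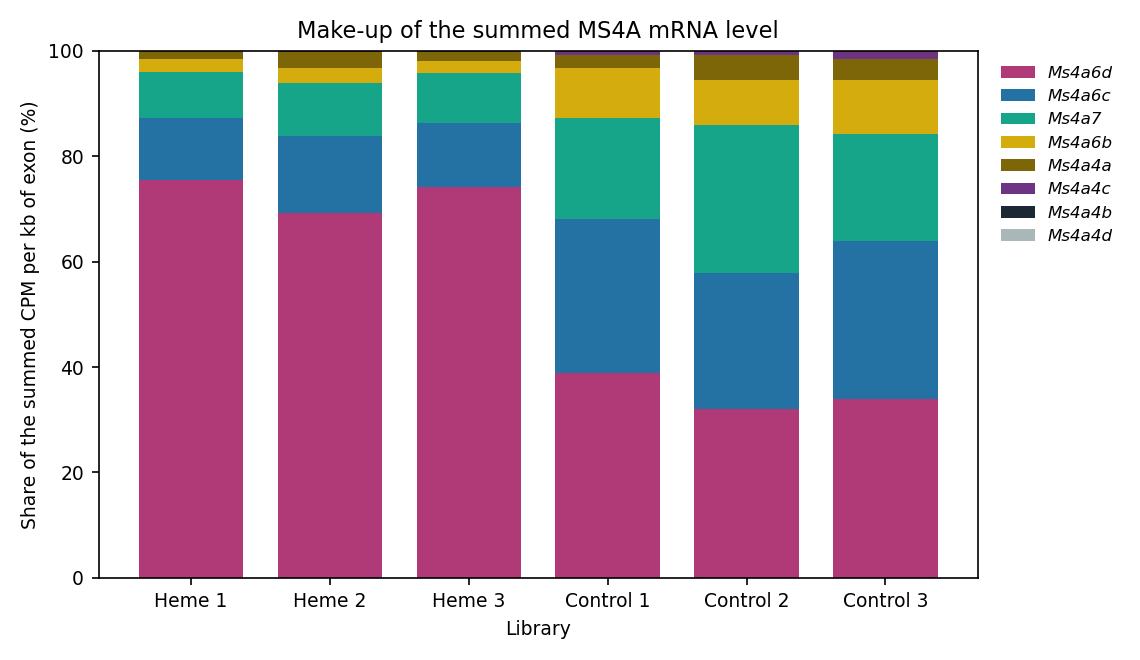
Share of each member in the summed CPM per kb of exon (%), stacked for each Heme and Control library. Ms4a6d takes 69.2% to 75.4% in Heme libraries and 32.0% to 38.9% in Control libraries, and Ms4a4b and Ms4a4d are too low to be seen.

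Within a library the ratio of 2 members likewise needs no scaling. Ms4a6d over Ms4a6c, per kilobase, was 6.32, 4.73 and 6.10 in the Heme libraries, against 1.33, 1.23 and 1.14 in the Control libraries. Ms4a6d over Ms4a6b was 29.1, 24.6 and 30.9 in the Heme libraries, against 4.11, 3.75 and 3.27 in the Control libraries. Both ratios were several-fold higher in every Heme library. Ms4a6b over Ms4a6c was 0.217, 0.193 and 0.197 in the Heme libraries, against 0.325, 0.329 and 0.348 in the Control libraries, so the 2 falling Ms4a6 genes did not keep their ratio either (exact two-sided permutation p = 0.1 for each ratio).

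The opposite directions lie within 1 stretch of chromosome. The nearest members on the left of Ms4a6d are Ms4a4d, with 3 counts in all Heme libraries together, and Ms4a6b, which fell. Between Ms4a4d and Ms4a6d lies Gm38275, which had 18 counts in Heme and 10 in Control libraries and was not tested. To the right of Ms4a6d lie Ms4a2 and Ms4a3, of which Ms4a3 was higher in Heme libraries. Of 29 genes without an Ms4a symbol that start within 500 kb of the outermost members, 11 were tested. Among those not tested was 1700025F22Rik, at 0 in all 6 libraries, which starts beside the RefSeq start given for Ms4a19. Of the 11 tested, 2 were higher, 0 were lower and 9 were not called, beside 62.5% called over all tested genes. Their median log2 fold change was 0.02. The 2 called were Slc15a3, a lysosomal peptide and histidine transporter (155.6 ± 10.9 CPM in Heme and 112 ± 5.79 CPM in Control libraries, SD, n = 3 each; log2 fold change 0.48, edgeR adjusted p = 0.000311), and Stx3, a syntaxin of vesicle fusion (log2 fold change 0.16, edgeR adjusted p = 0.0471). Gm8369, which lies between Ms4a6c and Ms4a6b, had 37 counts in Heme and 78 in Control libraries and was not called (log2 fold change -0.77, edgeR adjusted p = 0.0893).

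**Figure D3:**
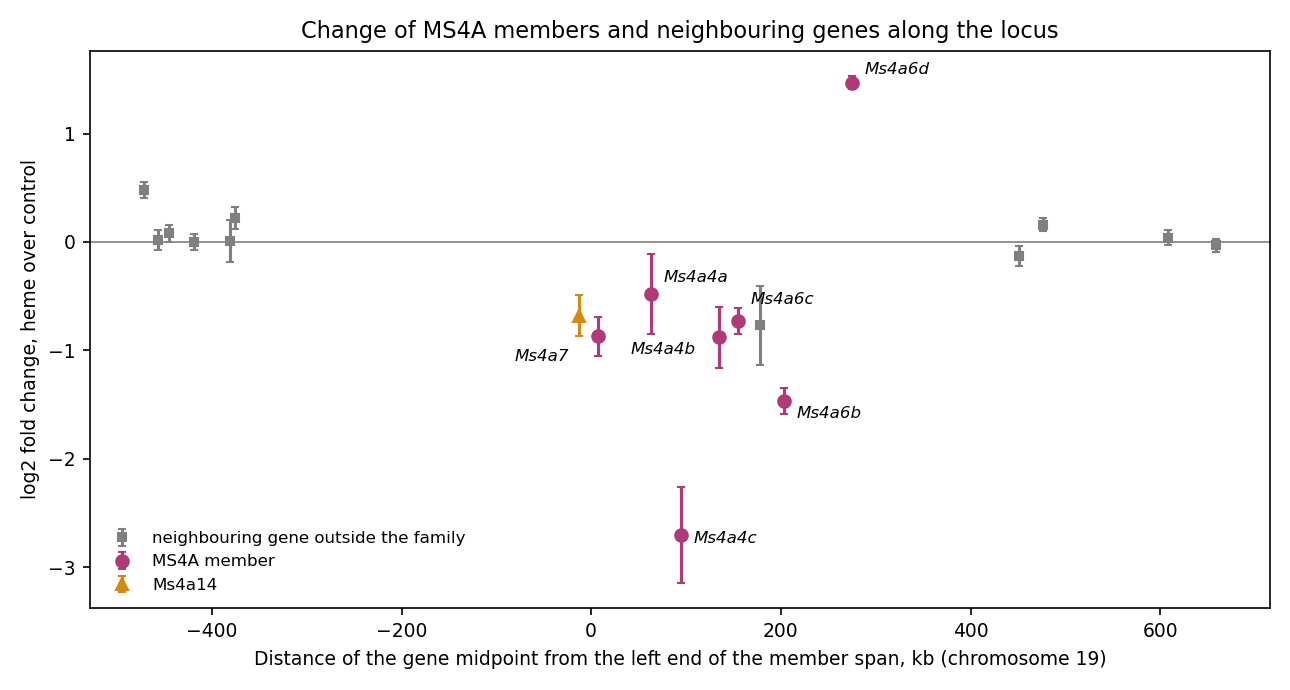
Log2 fold change (Heme over Control) against the distance of each gene's midpoint from the left end of the members' span on chromosome 19 (kb). Bars are 1 SE from the edgeR fit. Drawn are the tested MS4A members, Ms4a14 and neighbouring genes without an Ms4a symbol, which the legend calls outside the family. Ms4a3, at 0 in Control libraries, is not drawn. Ms4a6d at 1.47 is above 0, the other members lie between -0.48 and -2.70, and most neighbours lie near 0.

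The other MS4A genes and the related TMEM176 genes had 13 identifiers in the files, of which 4 were tested, 1 higher and 3 lower in Heme libraries, beside 31.7% higher and 30.8% lower over all tested genes. Ms4a14, which is next to Ms4a7, had 14.7, 19 and 16.9 CPM in the Heme libraries, against 19.1, 34.3 and 27.6 CPM in the Control libraries. The highest Heme library came within a small gap of the lowest Control library, and like Ms4a7 it was highest in Heme 2 and Control 2 (log2 fold change -0.68, SE 0.19, edgeR adjusted p = 0.0109; without Heme 1 -0.58 and adjusted p = 0.0508). Tmem176a and Tmem176b, 2 overlapping genes on chromosome 6 whose products are known from immature dendritic cells and macrophages, fell further than any member. Tmem176b had 0.876, 2.09 and 1.39 CPM in the Heme libraries, against 13.3, 28.9 and 22.7 CPM in the Control libraries (log2 fold change -3.91, SE 0.35, edgeR adjusted p = 9.29e-06). Tmem176a averaged 0.640 ± 0.148 CPM in Heme and 7.12 ± 2.82 CPM in Control libraries (SD, n = 3 each; log2 fold change -3.48, SE 0.36, edgeR adjusted p = 2.65e-05). The 2 genes share 81 exonic bases on opposite strands.

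Ms4a3, a gene of granulocyte-monocyte progenitors, had 19, 25 and 33 counts in the Heme libraries and 0 in each Control library. Pooled over the group this was 0.936 CPM in Heme libraries, or 31.9 times the 0.0293 CPM that 3 counts over the Control group would give (edgeR adjusted p = 0.000111). That ratio leaves out the counting error of the Heme libraries and the spread between cultures. All 5 markers of granulocyte-monocyte progenitors (Elane, Mpo, Prtn3, Ctsg, Ms4a3) were higher, beside 31.7% of all tested genes. Each of the 5 had at most 9 counts in any Control library and passed the filter on low counts only through the Heme libraries. The filter thus set that direction, and the comparison with all tested genes lends no support. Without the filter Ms4a3 was called higher as well (edgeR adjusted p = 5.48e-06). The summed level of the 5 markers was 23.7 to 48.3 CPM in Heme libraries and 0.387 to 0.398 CPM in Control libraries. Elane and Ms4a3 were at 0 in the Control libraries. Monocyte markers were higher in 4 of 6 genes and lower in 1, Ccr2 (log2 fold change -0.90), beside 31.7% higher and 30.8% lower over all tested genes. The largest rises were those of Ly6c2 (6.86, from 0.334 CPM in Control to 39.1 CPM in Heme libraries), Chil3 (3.91) and Plac8 (3.60). Ly6c2 and Plac8 passed the filter on low counts only through the Heme libraries. The monocyte marker sums were 199 to 264 CPM in Heme and 82.6 to 164 CPM in Control libraries. Their largest part was F13a1, which was not called (means 120 CPM in Heme and 96.4 CPM in Control libraries). The part of these cells in the levels of the members was not tested.

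Ms4a2 had 9 counts in Heme and 1 in Control libraries, and Ms4a1, the CD20 gene, 2 in Heme and 6 in Control libraries. Ms4a8a had 3 counts in Heme and 4 in Control libraries, Ms4a15 had 2 in each group, and Ms4a5, Ms4a10, Ms4a12, Ms4a13 and Ms4a18 were at 0 in all 6 libraries. None of these was detectable enough to be tested. The mast cell and basophil markers, which include Ms4a2, summed to 2.13 to 3.41 CPM in Heme and 0.149 to 0.249 CPM in Control libraries, with Mcpt4 and Tpsb2 at 0 in all libraries. The B cell markers, which include Ms4a1, summed to 0.477 to 0.977 CPM in Heme and 1.65 to 2.02 CPM in Control libraries. Neutrophil markers summed to 106 to 129 CPM in Heme and 57.6 to 117 CPM in Control libraries. Of these, 4 of 5 tested genes were higher and Csf3r was lower, beside 31.7% higher and 30.8% lower over all tested genes. Csf3r made up most of the Control sum, with means of 35.5 CPM in Heme and 75.2 CPM in Control libraries. The largest rises among the tested ones, as means in Heme and Control libraries, were those of S100a8 (34.3 and 2.02 CPM), Ngp (15.5 and 1.50 CPM) and S100a9 (26.0 and 3.41 CPM). Dendritic cell markers summed to 0.880 to 1.11 CPM in Heme and 0.703 to 1.67 CPM in Control libraries, none of them tested.

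Genes whose products are known to associate with MS4A proteins or to signal with them were read as a list of 12. Of the 10 tested, 5 were higher, 2 were lower and 3 were not called, with a median log2 fold change of 0.11. The 7 called of 10 are near the 62.5% called over all tested genes. Clec7a, which encodes Dectin-1, had 197, 228 and 251 CPM in the Heme libraries, against 85.5, 198 and 121 CPM in the Control libraries. The groups overlapped at Control 2, and the log2 fold change was 0.74 (SE 0.25, edgeR adjusted p = 0.0253). The tetraspanin genes Cd63 (log2 fold change 0.51, edgeR adjusted p = 0.000863), Cd81 (0.32) and Cd82 (0.28) and the kinase gene Syk (0.36) were higher as well. Fcer1g, which encodes the γ chain that the IgE receptor shares with other Fc receptors, averaged 605 ± 15.0 CPM in Heme and 933 ± 46.8 CPM in Control libraries (SD, n = 3 each), without overlap (log2 fold change -0.63, SE 0.07, edgeR adjusted p = 3.49e-05). Tyrobp, the adaptor of TREM2, was lower (log2 fold change -0.26, edgeR adjusted p = 0.0136), whereas Trem2 itself overlapped between the groups, at 636 ± 31.4 CPM in Heme and 665 ± 54.7 CPM in Control libraries (log2 fold change -0.06, edgeR adjusted p = 0.501). Card9 and Kit were not called, and Vsig4 and Tnfrsf18, the GITR gene, were not tested.

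Interferon-stimulated genes were read as a second list, since Ms4a4c is known as a gene of that response. All 12 were lower in Heme libraries, beside 30.8% of all tested genes, with a median log2 fold change of -4.66. Of these, Ifit3, Ifi44, Cxcl10 and Usp18 passed the filter on low counts only through the Control libraries, so the filter favoured that direction for them. None of the 12 overlapped between the groups, beside 68.8% of all tested genes without overlap. Their summed level was 45.8 to 50.2 CPM in Heme libraries, against 436, 337 and 678 CPM in Control 1, 2 and 3. Ifit3 fell furthest (0.539, 0.276 and 0.330 CPM in the Heme libraries, against 30.7, 21.5 and 55.8 CPM in the Control libraries; log2 fold change -6.52, edgeR adjusted p = 2.5e-06), followed by Ifit1 (-5.80) and Ifi44 (-5.76). In the Control libraries, all 12 genes were highest in Control 3 and lowest in Control 2. Ms4a4c, Ms4a6b, Ms4a6c and Ms4a6d, which was higher in Heme libraries, were also highest in Control 3, while Ms4a7, Ms4a4a and Ms4a4b were highest in Control 2. All 7 tested members were lowest in Control 1, where the interferon-stimulated genes were neither highest nor lowest. These are 3 cultures, and whether the members follow the interferon-stimulated genes was not tested.

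The genes whose profile over the 6 libraries was nearest to that of Ms4a6d, the member with the highest level per kilobase, were Tctex1d2, Mfsd6 and Fbxo30. The measure was the Euclidean distance between log2(CPM + 0.1) values centred on each gene's mean, and it was 0.085, 0.113 and 0.114 for these genes, beside a median of 1.85 over all tested genes. Mfsd6 averaged 282 CPM in Heme and 106 CPM in Control libraries, Fbxo30 51.3 CPM in Heme and 18.3 CPM in Control libraries, and Tctex1d2 14.3 CPM in Heme and 5.10 CPM in Control libraries. With 2 groups that differ for most genes, such closeness mainly describes a like fold change with little spread between cultures.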

How the data were processed

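RNA of 3 Heme and 3 Control BMDM cultures was sequenced from stranded TruSeq libraries (RNA integrity number over 9). The authors deposited whole-number counts per Ensembl gene and library, with no normalization; reads were aligned to GRCm38.p5 with STAR 2.7.0 and counted with featureCounts, per the labels. For the annotation release, the strand setting and multiply matching reads, the rule is not given in the sources used. Names, positions and exon lengths came from GENCODE M21 (113 identifiers had no symbol), promoter sequences from RefSeq (GRCm38.p6). No sequence of the Ms4a6d promoter was used here.

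Deposited counts were tested in R 4.3.3 with edgeR 4.0.16 (filterByExpr with a minimum count of 10, TMM, the quasi-likelihood functions glmQLFit and glmQLFTest, no covariate, Benjamini-Hochberg over 12433 genes, threshold 0.05). CPM used TMM-scaled library sizes of libraries with 27201038 to 32994595 counts, and division by the union of annotated exons gave CPM per kb. Standard errors came from the same test. Single sums, shares and ratios were compared with exact two-sided permutation tests (scipy 1.17.1). Coding sequences were aligned pairwise with Biopython 1.88. The procedure was also run on simulated counts in which few genes changed. Most tested genes were called in these data, so that run cannot speak for them.

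The members and lists were chosen with earlier results of these data known. All members are named, and so are the relatives found by symbol. Ms4a19 and Ms4a20 were listed but not found in the annotation under those symbols. Of other lists, the 3 most changed called genes at most, plus at most 2 that moved oppositely, were to be named. Further genes of the partner list (Cd81, Cd82, Syk, Tyrobp, Trem2, Card9, Kit, Vsig4, Tnfrsf18) and Gm8369 were added after their values were seen. Neighbours were genes starting within 500 kb. Alternatives were other scalings, DESeq2 1.42.0, limma-voom (limma 3.58.1), other filters, library sizes without the 20 most abundant genes, other gene lengths, the replicate number as a block and leaving out each library. Replicates of a group differed beyond sampling noise (chi-square per degree of freedom 6.23 to 50.2), so none was counted as a duplicate.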

Additional observations from a re-analysis of the deposited data

How the results depend on the processing

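Under the 15 alternatives run for them, Ms4a6d remained higher (log2 fold change 1.25 to 1.50) and Ms4a6b (-1.69 to -1.33), Ms4a6c (-0.95 to -0.63), Ms4a7 (-1.09 to -0.64) and Ms4a4c (-3.10 to -2.22) remained lower, each past the threshold every time. Ms4a4b was called in 8 of 14, its adjusted p being 0.0665 with DESeq2, 0.0515 with the replicate block and over the threshold in 4 of the fits without 1 library. Ms4a4a was called in 2 of 15 (-0.92 to -0.22), with the replicate block (-0.48, adjusted p 0.0446) and without Control 1 (-0.79, adjusted p 0.0304). Scaling by library size alone called 2580 genes higher and 5814 lower, and gave a log2 ratio of the summed MS4A level of -0.18 in place of 0.04; it lowers all Heme values relative to Control values. Leaving out 1 library gave 3457 to 4071 genes higher, 3253 to 3968 lower, 1 member higher, 4 to 6 members lower and a summed log2 ratio of -0.08 to 0.11.

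Over all tested genes, libraries with the same number did not deviate together (correlations -0.0998, -0.142 and -0.0683). The labels do not say whether equal numbers mark the same mouse or batch. With 3 libraries a group, these correlations cannot decide it. The replicate block gave 3671 genes higher and 3493 lower, and 1 member higher and 5 lower. Without a length correction, the Heme minus Control difference in share was -0.334 for Ms4a4a (main value -1.65), -0.0844 for Ms4a4b (-0.032), -0.585 for Ms4a4c (-0.92) and -17.4 for Ms4a7 (-13.1) percentage points, and with the longest transcript -0.0516 for Ms4a4b; no share changed direction under these 2 lengths. The CPM minimum left Ms4a4b untested. Depth limits Ms4a4b, Ms4a4c and Ms4a4d most, with 39, 42 and 3 counts in all Heme libraries, and 3 cultures a group limit every exact test to a smallest p of 0.1.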
